A study of Saccharomyces cerevisiae with 6 samples.

Results

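The genes described here encode the digestive proteases of the yeast vacuole and the small proteins that hold them in check. They were chosen by systematic name, 8 of the 7554 transcripts in the deposited table: the proteases PEP4, PRB1, PRC1, CPS1 and APE1, the inhibitors PAI3 and PBI2, and ATG8, a protein of autophagy. RNA was measured in 3 libraries of strain yMH007, which contains dChr, an artificial chromosome that carries data, and in 3 libraries of the control strain yMH104, which holds an empty plasmid. Both strains grew at 30 °C in synthetic complete medium without uracil (SC-Ura), from a 4 ml overnight culture diluted into 50 ml at an OD600 of 0.2, and were harvested at 1.0 to 1.2, and no further genotype is given in the sources used here. Each condition is a single strain, so dChr and any other difference between the strains cannot be told apart. Whether the 3 libraries of each strain began as independent cultures is not stated. The p-values below weigh the strain difference only against scatter among these libraries, which may be technical.

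The vacuole is the acidic compartment in which yeast breaks down proteins, and it is most active in this when cells run short of nutrients. Its proteases are made as inactive precursors. Proteinase A, encoded by PEP4, sits at the head of an activation cascade in which it and proteinase B, encoded by PRB1, cut the other precursors into active enzymes. Cytosolic inhibitors bind proteases outside the vacuole: Pai3 binds proteinase A, Pbi2 binds proteinase B, and Tfs1 binds carboxypeptidase Y, the product of PRC1. Autophagy delivers cytoplasm to these enzymes in vesicles whose membrane carries Atg8, and a related route, the Cvt pathway, brings aminopeptidase I, the product of APE1, to the vacuole.

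The sequences upstream of the genes are given first, because the measured RNA levels split the group into members that rose and members that did not. Each window runs from 400 to 101 bp before the start codon on the R64 assembly, which the sacCer3 build named by the submitters denotes, and was read from RefSeq. The 300 bases are 5′ to 3′ on the strand of the gene, and capitals mark matches on either strand to AGGGG (the stress response element bound by Msn2 and Msn4), GGCGGC (the core of the URS1 element bound by Ume6) and GATAAG (a site of GATA factors of nitrogen regulation). PRB1 (chrV:42054-42353, minus strand) and PBI2 (chrXIV:604984-605283, plus strand) are shown as the 2 members that rose, PEP4 (chrXVI:261032-261331, minus strand) as the partner of PRB1 in the cascade, and PAI3 (chrXIII:610466-610765, minus strand) as the member with the most stress response elements.
PRB1: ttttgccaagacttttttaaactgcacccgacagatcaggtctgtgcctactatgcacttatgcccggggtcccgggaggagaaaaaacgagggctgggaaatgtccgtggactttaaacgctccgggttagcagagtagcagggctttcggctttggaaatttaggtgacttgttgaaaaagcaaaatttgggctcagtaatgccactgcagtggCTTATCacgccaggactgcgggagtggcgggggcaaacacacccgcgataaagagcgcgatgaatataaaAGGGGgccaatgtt
PBI2: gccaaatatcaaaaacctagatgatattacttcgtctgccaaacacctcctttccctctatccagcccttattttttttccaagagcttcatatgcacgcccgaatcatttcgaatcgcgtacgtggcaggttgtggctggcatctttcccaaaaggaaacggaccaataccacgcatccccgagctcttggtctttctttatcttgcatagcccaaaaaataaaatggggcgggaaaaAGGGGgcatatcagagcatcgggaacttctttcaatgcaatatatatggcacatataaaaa
PEP4: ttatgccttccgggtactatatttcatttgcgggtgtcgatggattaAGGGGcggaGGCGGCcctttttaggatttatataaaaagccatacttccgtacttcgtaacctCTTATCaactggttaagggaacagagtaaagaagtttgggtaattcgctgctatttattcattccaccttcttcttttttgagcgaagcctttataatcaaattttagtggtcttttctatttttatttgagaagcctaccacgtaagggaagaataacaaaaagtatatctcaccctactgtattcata
PAI3: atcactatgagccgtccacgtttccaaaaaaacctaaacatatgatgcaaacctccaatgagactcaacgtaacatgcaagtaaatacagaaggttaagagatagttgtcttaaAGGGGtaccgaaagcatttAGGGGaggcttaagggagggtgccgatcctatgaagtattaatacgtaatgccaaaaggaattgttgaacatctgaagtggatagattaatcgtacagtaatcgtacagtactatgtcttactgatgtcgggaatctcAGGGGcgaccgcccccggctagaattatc

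An AGGGG match was present in the window of 7 of the 8 members, all but ATG8, whereas 23.5% of 6001 windows of yeast protein-coding genes held one. PAI3 had 3, PRC1 and APE1 had 2 each, and PEP4, PRB1, CPS1 and PBI2 had 1 each. PRB1 and PBI2 thus had 1 match each, and the 6 members that did not pass the test had 0 to 3. GGCGGC was found in PEP4 and, as 2 matches that overlap, in ATG8 (6.12% of all windows). GATAAG was found in PEP4, PRB1, PRC1 and, as 2 matches that overlap, in CPS1 (13.9% of all windows). No match to one motif overlapped a match to another in these 8 windows. The windows of APE1 and ATG8 also cover parts of the annotated neighbours YKL102C and ILS1. A match describes the letters of the window and does not show that a factor binds there. The windows and motifs were chosen after values were seen, so the counts are a description and not a test of the members.

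**Figure D1:**
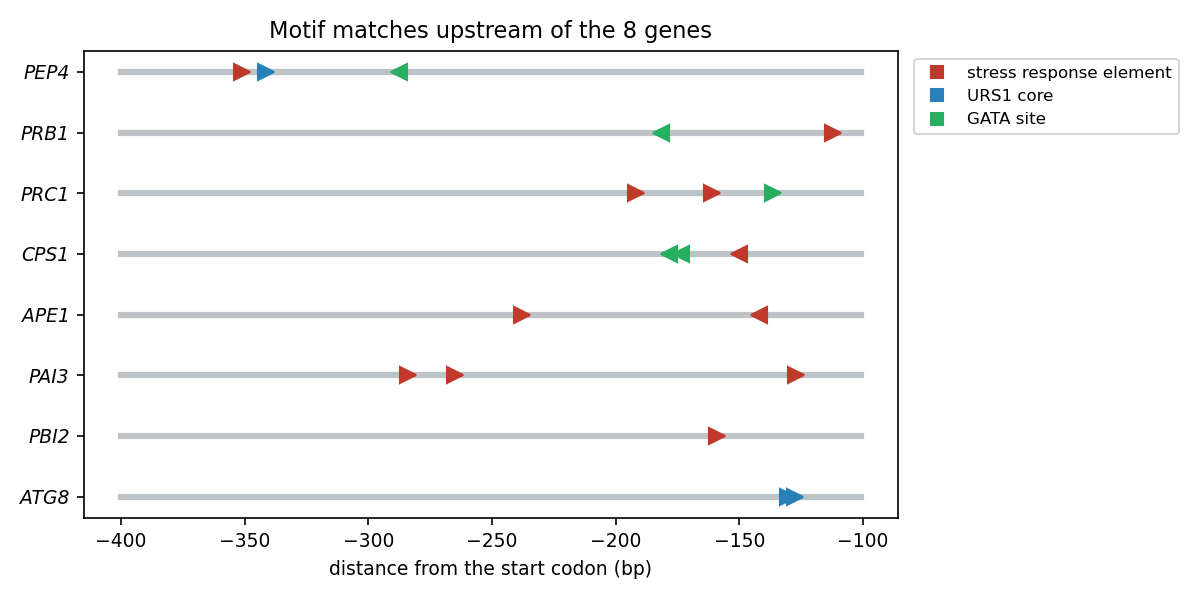
Motif matches in the window from 400 to 101 bp upstream of the start codon of the 8 genes, with distance in bp on the horizontal axis and 1 gene per line. Triangles point right for a match on the strand of the gene and left for one on the other strand, and AGGGG is present in 7 of the 8 windows.

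Each member has a single coding exon, and none overlaps another annotated gene in RefSeq. PEP4 (YPL154C) lies at chromosome XVI 259714 to 260931, PRB1 (YEL060C) at chromosome V 40046 to 41953, PRC1 (YMR297W) at chromosome XIII 861922 to 863520 and CPS1 (YJL172W) at chromosome X 97737 to 99467. APE1 (YKL103C) lies at chromosome XI 246138 to 247682, PAI3 (YMR174C) at chromosome XIII 610159 to 610365, PBI2 (YNL015W) at chromosome XIV 605384 to 605611 and ATG8 (YBL078C) at chromosome II 80378 to 80731. The inhibitor genes are the shortest, at 207 bp for PAI3 and 228 bp for PBI2, against 1218 to 1908 bp for the 5 proteases.

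Levels are TPM, in which reads per transcript length are brought to nearly one total per library (970077 to 992087 here). Genes can thus be set beside each other per length. How short transcripts such as PAI3, PBI2 and ATG8 were handled is not stated. Their levels relative to the longer proteases are therefore less certain. TPM keeps no read depth, and no counting interval is given. Strains were compared on log2(TPM + 1) with limma over the 5938 transcripts whose mean was at least 1 TPM, with Benjamini-Hochberg adjustment over all of them and a threshold of 0.05. The libraries differed in ways that the strains do not explain: on the second principal component, with 22.6% of the variance, control libraries 1, 2 and 3 lay at -32.7, 43.0 and -10.0, and the dChr libraries between -3.4 and 5.6. Of all tested transcripts 13.4% were called, 4.19% higher in the dChr strain and 9.16% lower. The balance of directions depended on scaling, with 496 higher and 642 lower under median-ratio scaling, 555 higher and 561 lower under quantile normalization, against 249 higher and 544 lower as reported.

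Of the 8 members 2 rose in the dChr strain, PRB1 and PBI2, a protease and the inhibitor that binds it, and none fell, where 4.19% of all tested transcripts were higher and 9.16% lower. In mean TPM the rise was 1.66-fold for PRB1 and 1.55-fold for PBI2. The other 6 did not pass the test. All 8 members met the filter on low values, PAI3 only just, with a mean of 1.002 TPM. With a stricter filter of at least 10 TPM, which leaves out PAI3 and ATG8, 231 of 2977 transcripts were called higher and 422 lower. The members' median log2 fold change was 0.08, against -0.04 over all tested transcripts. In RNA from a whole culture, more cells with a transcript and more of it per cell cannot be told apart.

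PRB1, the subtilisin-like serine protease of the vacuole, was at 218, 213.9 and 214.4 TPM in dChr libraries 1, 2 and 3, against 120.5, 143.5 and 126.4 TPM in control libraries 1, 2 and 3. Every dChr library was above every control library, and the dChr libraries lay closer together than the control libraries. Its mean was 215.4 ± 2.23 TPM in dChr libraries and 130.1 ± 12.0 TPM in control libraries (SD, n = 3 each). The log2 fold change was 0.73 ± 0.09 (SE; limma adjusted p = 0.00423), with a 95% interval from 0.51 to 0.94. It rose in each of the 18 alternative fits, with adjusted p between 0.000734 and 0.0237.

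PEP4, the aspartyl protease proteinase A, was the most abundant member, at 1087, 1089.7 and 972 TPM in dChr libraries 1, 2 and 3, against 975, 1025 and 875 TPM in control libraries 1, 2 and 3. The strains overlapped, with dChr library 3 below control libraries 1 and 2. Its log2 fold change was 0.13 ± 0.10 (SE; limma adjusted p = 0.455), and the 95% interval from -0.11 to 0.37 ends below the interval of PRB1. PEP4 stood at the 98.9th percentile of mean TPM among protein-coding genes, and PRB1 at the 93.6th.

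PRC1, carboxypeptidase Y, was at 404, 395 and 356 TPM in the dChr libraries, against 404, 409.7 and 336 TPM in the control libraries. CPS1, carboxypeptidase S, which is delivered to the vacuole as a membrane-bound precursor, was at 132, 122 and 123 TPM in the dChr libraries, against 133, 133 and 119.99 TPM in the control libraries. APE1, the Cvt cargo, was at 166, 150.1 and 142 TPM in the dChr libraries, against 144, 150.5 and 126 TPM in the control libraries. For each of these 3 exopeptidases the strains overlapped and the test was not passed. The log2 fold change was 0.01 for PRC1 (95% interval -0.25 to 0.27), -0.04 for CPS1 (-0.23 to 0.16) and 0.12 for APE1 (-0.13 to 0.37). The sign for PRC1 turned without mitochondrial and non-coding transcripts and that for CPS1 with median-ratio scaling. Neither was called in any fit.

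**Figure D2:**
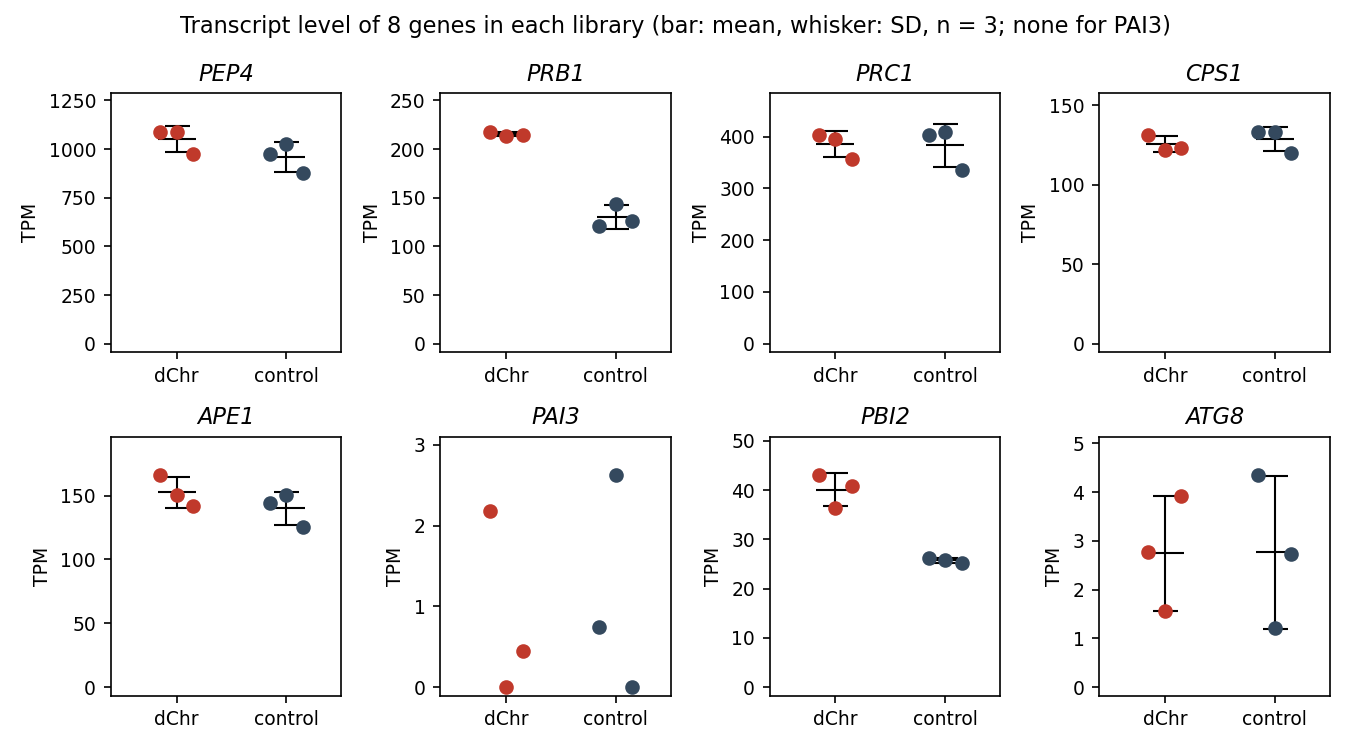
TPM of the 8 genes in each of 3 dChr libraries (left, red) and 3 control libraries (right, dark blue), with a bar for the mean and whiskers for the SD, and points alone for PAI3. PRB1 and PBI2 are the genes whose strains do not overlap.

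By mean TPM the order of the protease transcripts differed between the strains in 1 place, PRB1 against APE1. PRB1 was above APE1 in control library 3 (126.4 against 125.8 TPM) and below it in control libraries 1 and 2. In the dChr strain PEP4 came first, then PRC1, PRB1, APE1 and CPS1, and the lowest PRB1 library (213.9 TPM) was above the highest APE1 library (166 TPM). In the control strain PEP4 and PRC1 again led, but APE1, PRB1 and CPS1, with means of 140.2, 130.1 and 128.9 TPM, did not differ beyond their spread (SD 12.9, 12.0 and 7.75 TPM, n = 3 each). PRB1 made up 10.8% to 11.9% of the summed TPM of the 5 proteases in the dChr libraries, against 6.78% to 7.98% in the control libraries. PEP4 took 53.8% to 55.3% of that sum in the dChr libraries, against 54.9% to 55.3% in the control libraries. PRC1 took 19.7% to 20.1% in the dChr libraries, against 21.2% to 22.7% in the control libraries. For CPS1 the shares were 6.20% to 6.81% with dChr and 7.17% to 7.58% in the control libraries. For APE1 they overlapped, at 7.62% to 8.27% and 7.94% to 8.12%. Shares of a sum are not independent, since a larger share of PRB1 lowers the others.

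PBI2, the inhibitor of proteinase B and also a partner of thioredoxin in a complex of vacuole fusion, was at 43.1, 36.4 and 40.9 TPM in dChr libraries 1, 2 and 3, against 26.3, 25.8 and 25.3 TPM in control libraries 1, 2 and 3. The strains did not overlap, and here the control libraries lay closer together. Its mean was 40.1 ± 3.40 TPM in dChr libraries and 25.8 ± 0.515 TPM in control libraries (SD, n = 3 each). The log2 fold change was 0.61 ± 0.09 (SE; limma adjusted p = 0.00788), with a 95% interval from 0.40 to 0.83. It rose in each of the 18 alternative fits, with adjusted p between 0.00353 and 0.0409. Over the 8 members, PRB1 and PBI2 were the 2 whose strains did not overlap, where 34.1% of all tested transcripts did not overlap, 12.9% with every dChr library higher and 21.2% with every dChr library lower.

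PAI3, the inhibitor of proteinase A, was near the bottom of the table. It was at 2.19 TPM in dChr library 1, listed at 0 in dChr library 2 and at 0.448 TPM in dChr library 3, against 0.749 and 2.63 TPM in control libraries 1 and 2 and a listed 0 in control library 3. Either strain thus held libraries with and without a value above 0, and the 95% interval of its log2 fold change (-1.60 to 1.29; limma adjusted p = 0.902) leaves room for a more than 2-fold difference in either direction. PBI2 was higher than PAI3 per length in all 6 libraries.

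ATG8, the ubiquitin-like protein that is coupled to lipid on autophagic membranes, was at 2.77, 1.55 and 3.91 TPM in the dChr libraries, against 4.35, 1.22 and 2.72 TPM in the control libraries. All 3 dChr libraries lay within the range of the control libraries, and the log2 fold change of 0.03 turned in sign under other settings and had a 95% interval from -0.88 to 0.95 (limma adjusted p = 0.970). With 26.6% of protein-coding genes below its mean, ATG8 stood well under the 5 proteases, which were above 91.6% of protein-coding genes or more.

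**Figure D3:**
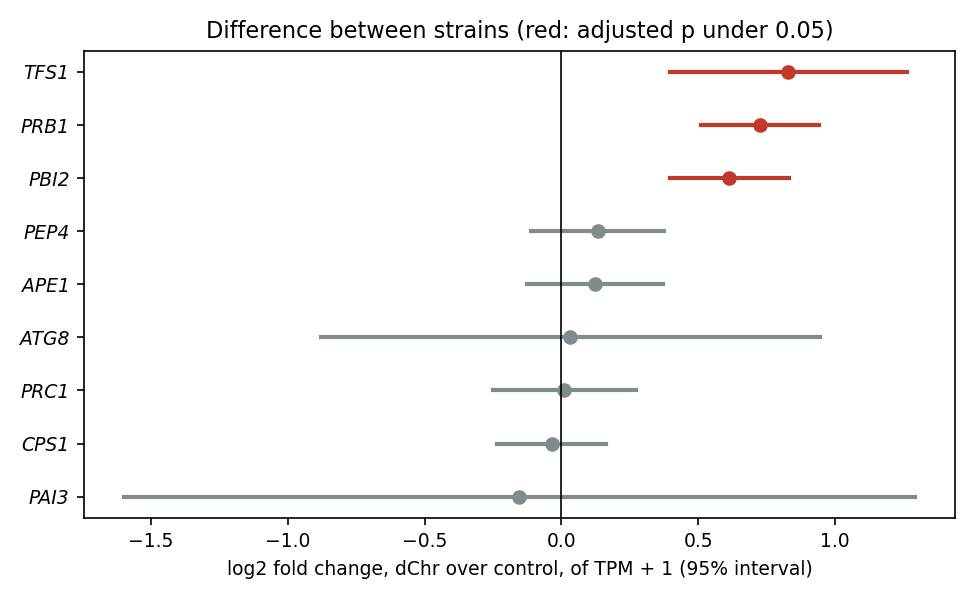
log2 fold change of TPM + 1, dChr over control, with the 95% interval from limma, for the 8 genes and for TFS1. PRB1, PBI2 and TFS1, in red, passed the threshold of 0.05, and the intervals of PAI3 and ATG8 are the widest.

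Ratios of 2 transcripts within a library do not depend on how the library was scaled, apart from the pseudocount, and 4 were compared. With 3 libraries against 3 the exact permutation test cannot go below p = 0.1. The ratio PBI2/PRB1, inhibitor over its protease, averaged -2.40 ± 0.11 on the log2 scale in dChr libraries and -2.29 ± 0.14 in control libraries (SD, n = 3 each), with strains that overlapped (exact permutation test, two-sided, p = 0.4, adjusted p = 0.533). PBI2 RNA was 0.170 to 0.198 of PRB1 RNA by TPM in the dChr libraries, against 0.180 to 0.218 in the control libraries. The difference between the strains was -0.11 on the log2 scale, close in size to the SD within either strain.

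The ratio PRB1/PEP4 averaged -2.28 ± 0.09 in dChr libraries and -2.87 ± 0.12 in control libraries (SD, n = 3 each), higher in every dChr library (exact permutation p = 0.1, the smallest possible; adjusted p = 0.2). TFS1/PRC1, the third inhibitor over carboxypeptidase Y, averaged -3.22 ± 0.09 in dChr libraries and -4.03 ± 0.21 in control libraries (SD, n = 3 each), also without overlap (exact permutation p = 0.1; adjusted p = 0.2). PRB1 and TFS1 were also called singly in these same libraries, so PRB1/PEP4 and TFS1/PRC1 are not independent of those calls. PAI3/PEP4 lay between -10.1 and -8.42 in the dChr libraries, against -9.78 to -8.14 in the control libraries (exact permutation p = 0.7; adjusted p = 0.7), and rests on PAI3 values that the pseudocount dominates.

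**Figure D4:**
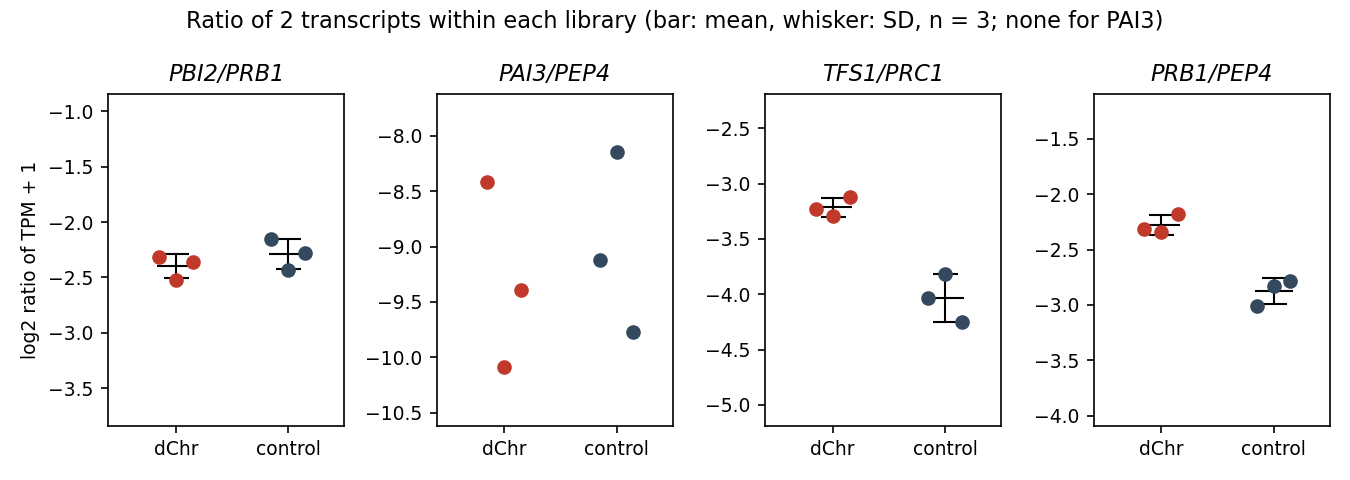
log2 ratio of TPM + 1 of 2 transcripts within each library, with 3 dChr libraries (left, red) and 3 control libraries (right, dark blue), bars for the mean and whiskers for the SD, and points alone for PAI3/PEP4. All panels span the same number of log2 units; TFS1/PRC1 and PRB1/PEP4 are the ratios whose strains do not overlap.

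TFS1 (YLR178C, chromosome XII 513162 to 513821) is not among the 8 members but completes the set of inhibitors. It was at 42.2, 39.4 and 39.95 TPM in the dChr libraries, against 23.7, 28.1 and 16.7 TPM in the control libraries. Every dChr library was higher, and the log2 fold change was 0.83 ± 0.18 (SE; limma adjusted p = 0.0296). The call was lost without dChr library 1, 2 or 3 or without control library 1 (limma adjusted p = 0.101, 0.0808, 0.0871 and 0.0652). Its neighbour and sequence relative YLR179C (chromosome XII 514108 to 514713, same strand) fell, at 98.7 ± 3.55 TPM in dChr libraries and 143.9 ± 20.3 TPM in control libraries (SD, n = 3 each; limma adjusted p = 0.0299), a call lost without the same 4 libraries (limma adjusted p from 0.0753 to 0.105). The thioredoxin genes TRX1 and TRX2, whose products pair with Pbi2, had log2 fold changes of -0.17 and -0.09 and did not pass the test.

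The 8 lists of related genes place the members in their pathway. Of their 87 tested genes 3 rose and 6 fell, where 4.19% of all tested transcripts were called higher and 9.16% lower. An unadjusted p under 0.05 was found for 22 of the 87, and for 27.8% of all tested transcripts. Under median-ratio scaling 12 rose and 4 fell, where 496 of all 5938 tested transcripts rose and 642 fell. Under quantile normalization 14 rose and 4 fell, where 555 of the 5938 rose and 561 fell. Among 13 other vacuolar proteases and hydrolases 0 rose and 1 fell by limma, with a median log2 fold change of 0.07. The gene that fell was PHO8, the vacuolar alkaline phosphatase that is itself activated by proteinase A, at 29.0 ± 3.47 TPM in dChr libraries and 40.7 ± 2.77 TPM in control libraries (SD, n = 3 each; limma adjusted p = 0.0391). This call did not survive leaving out any 1 of the libraries (limma adjusted p from 0.0682 to 0.117). Among 9 aspartyl and serine proteases outside the vacuole 3 fell and 0 rose, against 9.16% of all tested transcripts called lower and 4.19% called higher. BAR1, the secreted protease that cuts alpha-factor, had a log2 fold change of -1.16, and the cell surface proteases MKC7 and YPS7 had -0.46 and -0.35. MKC7 lost its call without any single library other than control library 1 and YPS7 without any other than control library 3 (limma adjusted p from 0.0791 to 0.155).

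Of 29 tested autophagy genes in 3 lists limma called 2, against 13.4% of all tested transcripts. Of 6 tested genes for the conjugation of ATG8 and ATG12, limma called 0, with a median log2 fold change of 0.35. An unadjusted p under 0.05 was found for 2 of these 6, against 27.8% of all tested transcripts. ATG7, the enzyme that activates Atg8, averaged 16.5 ± 1.61 TPM in the dChr libraries and 10.1 ± 2.65 TPM in the control strain (SD, n = 3 each; limma adjusted p = 0.0691), and 7 of the 18 alternative fits called it higher. ATG5, part of the conjugation machinery, averaged 38.4 ± 2.64 TPM with dChr and 40.2 ± 4.70 TPM in the control libraries. Of 10 tested genes of the ATG1 kinase complex, ATG9 and the lipid kinase, 1 fell and 0 rose: ATG1, the kinase that starts autophagosome formation, was at 3.16, 3.91 and 3.82 TPM in the dChr libraries, against 8.48, 8.71 and 6.61 TPM in the control libraries (log2 fold change -0.94 ± 0.14 SE, limma adjusted p = 0.00862). Of 13 tested genes of the Cvt pathway and selective autophagy 1 rose and 0 fell: ATG34, a receptor that brings a vacuolar hydrolase to autophagosomes in starvation, was at 15.8, 16.9 and 15.6 TPM in the dChr libraries, against 9.31, 9.46 and 9.56 TPM in the control libraries (0.71 ± 0.09 SE, limma adjusted p = 0.00396). The calls of ATG1 and ATG34 held without each single library.

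Of 32 tested genes for the acidification of the vacuole and for delivery to it limma called 1, against 13.4% of all tested transcripts. Of 17 tested genes of the V-ATPase, the proton pump, limma called 0, with a median log2 fold change of 0.07. An unadjusted p under 0.05 was found for 2 of these 17, against 27.8% of all tested transcripts. VMA3, a proteolipid subunit, averaged 993 ± 92.0 TPM with dChr and 946 ± 36.5 TPM in the control strain (SD, n = 3 each). VMA1, the catalytic subunit, averaged 563 ± 19.0 TPM with dChr and 509 ± 35.1 TPM in the control strain. Of 15 tested genes for sorting from the Golgi to the vacuole 1 rose and 0 fell: GGA1, a clathrin adaptor, averaged 20.0 ± 2.49 TPM in the dChr libraries and 13.4 ± 0.842 TPM in the control strain (SD, n = 3 each; limma adjusted p = 0.0273). That call was lost without dChr library 1 or 2 or control library 1 or 3 (limma adjusted p from 0.0759 to 0.1). PHO8 and MKC7 were not called under median-ratio scaling, quantile normalization, a fit without an intensity trend or a replicate block (limma adjusted p from 0.0527 to 0.0913). MKC7 was also not called with a pseudocount of 5, no filter or array weights (limma adjusted p from 0.0507 to 0.0623), nor YPS7 without an intensity trend (limma adjusted p = 0.0702). Without mitochondrial and non-coding transcripts PHO8 and GGA1 were not called (limma adjusted p = 0.0575 and 0.0602), and PHO8, MKC7, YPS7, YLR179C and GGA1 were not called without assembled transcripts (limma adjusted p from 0.0622 to 0.341).

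**Figure D5:**
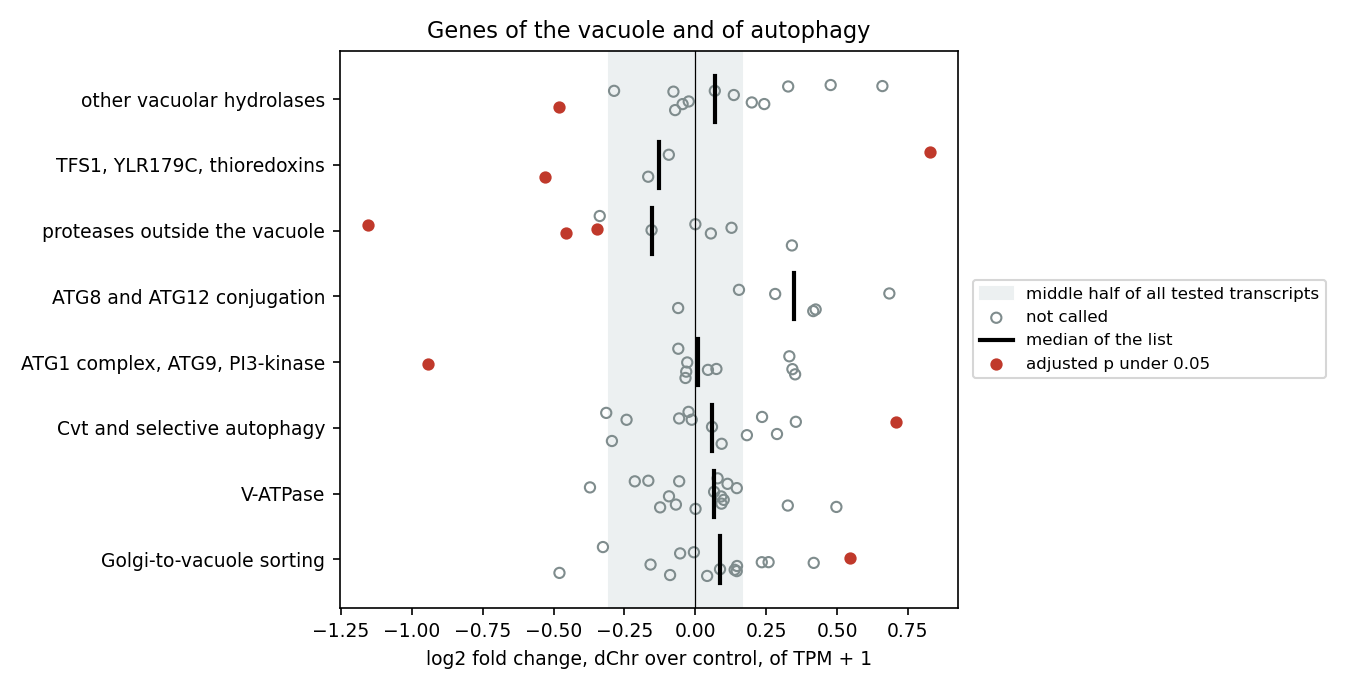
log2 fold change of TPM + 1, dChr over control, of the tested genes in 8 lists, with filled red points for those past the threshold and a black line at the median of each list. The shaded band is the range from the lower to the upper quartile of all 5938 tested transcripts, and 9 of the 87 genes are filled.

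The genes whose profile over the 6 libraries was nearest to that of PRB1 and of PBI2 were found by the root mean square difference of log2(TPM + 1), each gene centred on its own mean, among the other 5081 tested protein-coding genes. Nearest to PRB1 were FAS2, a fatty acid synthase subunit (0.068), YMR085W (0.069) and ARI1, an aldehyde reductase (0.070). Nearest to PBI2 were HSP60, the mitochondrial chaperonin (0.053), MDY2, a factor for inserting tail-anchored proteins (0.067), and ERG29 of sterol synthesis (0.071). ERG29 averaged 2.31 TPM in the dChr libraries and 1.09 TPM in the control libraries, a level at which the pseudocount of 1 shrinks differences: the ratio of its mean TPM was 2.13, against 1.55 for PBI2. PBI2 ranked 35th from PRB1, and PRB1 ranked 25th from PBI2, at a difference of 0.116. The nearest of the remaining members were PEP4 to PRB1 (rank 1066) and APE1 to PBI2 (rank 811). The points share their libraries, and nearness is a description of these 6 values. PRB1 and PBI2 were both called higher in these same libraries, so their ranks are not independent of those calls.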

How the data were processed

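The authors deposited 1 table of TPM for 6 libraries of total RNA, with no depth. The submitters' processing notes name the build sacCer3 and the tools HISAT2 2.0.5, StringTie 2.0, cutadapt 2.6, R 3.6.0 and DESeq2. The role of each tool, filters and use of strand were not stated in the sources, so antisense reads cannot be separated. From the deposited TPM, log2(TPM + 1) was computed and the strains were compared with limma 3.58.1 (R 4.3.3; eBayes, intensity trend, no block). Two-sided exact permutation tests used scipy 1.17.1. Python 3.11.15, pandas 2.3.3, numpy 2.4.6 and matplotlib 3.10.9 were also used. A simulation with separate noise for each gene was run only to check the code. It held no differences shared by the genes of a library, such as those seen here.

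The members and lists were chosen with earlier results of these data known. Named beside the members were the called genes of each list, at most 3 per direction, or else the 2 highest in mean TPM, with TFS1 always, and the 3 profiles nearest to PRB1 and to PBI2. TRX1 and TRX2 were named outside this rule. The promoter windows, the motifs and the summed protease share were chosen after values were seen. The 18 alternatives changed the pseudocount, filter, scaling, variance model or block, or left out 1 library.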

Additional observations from a re-analysis of the deposited data

How the results depend on the processing

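PRB1 and PBI2 were called higher, and the other 6 members were not called, in every alternative fit that gave a value. PAI3 had none with a mean of at least 10 TPM, without dChr library 1 or without control library 2, and ATG8 had none with a mean of at least 10 TPM. Signs of members that were not called turned: PRC1 to -0.073 and ATG8 to -0.037 without mitochondrial and non-coding transcripts, CPS1 to 0.023 with median-ratio scaling, and PAI3 to 0.17 and ATG8 to -0.040 with array weights. With a library left out, PRC1 ranged from -0.081 to 0.065, PAI3 from -0.60 to 0.21, ATG8 from -0.30 to 0.33 and the PAI3/PEP4 difference from -0.73 to 0.15. Among other named genes that were not called, ATG5 turned to 0.019 with quantile normalization and VMA3 to -0.018 without mitochondrial and non-coding transcripts. With a library left out, ATG5 ranged from -0.15 to 0.015 and VMA3 from -0.0059 to 0.12.

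Over all transcripts the fit called 249 higher and 544 lower. Median-ratio scaling gave 496 higher and 642 lower, quantile normalization 555 higher and 561 lower, removal of mitochondrial and non-coding transcripts 178 higher and 647 lower, and removal of assembled transcripts 151 higher and 360 lower. When 1 library was left out, which reduces the samples, 113 to 262 were higher and 282 to 417 lower; the counts were 262 and 368 without control library 2. Of the genes in the 8 lists, 12 rose and 4 fell under median-ratio scaling, 14 rose and 4 fell under quantile normalization, 2 fell without assembled transcripts and 3 without an intensity trend. When 1 library was left out, 1 to 4 rose and 2 to 4 fell there. The causes of the scaling differences were not tested. Of 233 alternative values of other named genes, 47 lost a call and 7 gained one, all 7 for ATG7.

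With a replicate block, 268 transcripts rose and 566 fell, PRB1 and PBI2 were called (limma adjusted p = 0.0141 and 0.0183), and the lists had 4 rises and 4 falls: PHO8 and MKC7 lost their calls (0.0794 and 0.0913) and ATG7 gained one (0.0373). After each strain mean was removed, libraries with the same number correlated at 0.09, -0.08 and 0.12, and some correlated better with another number, so the numbers were not taken to pair the libraries.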
